A study of Mus musculus with 9 samples.

Results

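The genes examined were 8 that encode the signalling adaptors and activating receptors of natural killer (NK) cells: the transmembrane adaptors Tyrobp (DAP12), Hcst (DAP10) and Fcer1g (the Fc receptor gamma chain), the receptors Ncr1 (NKp46) and Fcgr3 (CD16), and the small SH2-domain adaptors Sh2d1a (SAP), Sh2d1b1 (EAT-2A) and Sh2d2a (TSAd). They were listed by symbol, with earlier results of these data known, and all 8 were among the 18188 genes of each library. The RNA was poly(A)-selected and came from CD8+ T cells, the cytotoxic lymphocytes, of mouse spleens. The study compared 4 libraries of cells labelled with a knockout of the RIG-I gene (Rig1 KO) with 5 wild-type libraries (WT). RIG-I recognises viral RNA in the cytosol and starts the interferon response. The labels name the genotype, the spleen and the cell type for every library, and no strain, age, sex or treatment. How the knockout was made, how the cells were purified and whether libraries came from separate animals are not given in the sources used here. A p-value below therefore measures the spread among these libraries alone, which may be technical.

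Activating receptors of NK cells mostly lack signalling motifs of their own and pair with a transmembrane adaptor. DAP12 and the Fc receptor gamma chain carry an immunoreceptor tyrosine-based activation motif (ITAM), a pair of spaced tyrosines that, once phosphorylated, bind the kinases Syk and ZAP-70. DAP10 carries a single tyrosine in a YINM motif, which binds PI3-kinase and GRB2, and it is the partner of NKG2D on activated mouse CD8+ T cells. SAP and EAT-2 bind the tails of SLAM family receptors, and TSAd binds the T cell kinase LCK. CD8+ T cells can express several of these genes after activation, while monocytes, neutrophils, basophils and mast cells use Tyrobp and Fcer1g with receptors of their own.

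The coding stretches that separate the 3 transmembrane adaptors are shown here because the values of each adaptor are set against the others below. The sequences are from the GENCODE M21 transcripts of GRCm38, 5′ to 3′, and the capitals mark the codons of the tyrosines.
Tyrobp: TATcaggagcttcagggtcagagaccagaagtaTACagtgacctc
Fcer1g: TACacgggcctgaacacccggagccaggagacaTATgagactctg
Hcst: TACatcaacatg
The Tyrobp stretch is coding bases 274 to 318 of 342, the Fcer1g stretch coding bases 193 to 237 of 258, and the Hcst stretch coding bases 214 to 225 of 237. In both ITAMs 10 codons lie between the tyrosine codons, and 19 of the 45 bases (42.2%) are identical between the 2 stretches. The Hcst stretch holds 1 tyrosine codon in 12 bases. Tyrobp and Hcst are also neighbours on chromosome 7, on opposite strands with their ends 126 bases apart in GRCm38.

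The deposited values are TPM, that is, reads divided by a gene length and scaled to the same total in every library. The reads behind them could be recovered, at 15509876 to 17866952 per Rig1 KO library and 15496262 to 17893558 per WT library. For all 8 genes the length used was the genomic span, introns included. Levels of different genes are therefore set side by side below only after rescaling to exon length. The ratios of 2 genes use TPM as deposited, so their size depends on both spans and they are compared only between libraries. The RIG-I gene (Ddx58) averaged 33.3 ± 2.04 TPM in Rig1 KO libraries and 65.1 ± 2.0 TPM in WT libraries (SD, n = 4 and 5; adjusted p = 4.91e-07, limma), so transcripts of the targeted gene remained at 51.1% of the WT level. Cd8a averaged 2528 ± 175 TPM in Rig1 KO libraries and 1731 ± 110 TPM in WT libraries, and Cd4 4.38 ± 0.879 TPM in Rig1 KO libraries and 13.0 ± 12.3 TPM in WT libraries. Markers of NK cells, monocytes, basophils, neutrophils, platelets and B cells were also present in these libraries, and their values are given beside the results they moved with. In bulk RNA, more cells of a type and more RNA per cell cannot be told apart.

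All 8 genes passed the filter of at least 1 TPM in at least 4 libraries, and 5 rose and 1 fell in Rig1 KO libraries at an adjusted p under 0.05 (limma on log2(TPM + 1), Benjamini-Hochberg over 10540 tested genes). The genes that rose were Hcst, Ncr1, Fcgr3, Sh2d1a and Sh2d1b1, the gene that fell was Sh2d2a, and Tyrobp and Fcer1g did not pass. Calls were common in this comparison: 45.7% of all tested genes were called, 33.5% higher and 12.2% lower. The median log2 fold change (Rig1 KO minus WT) was 0.62 over the 8 genes and 0.13 over all tested genes. The Rig1 KO and WT values did not overlap for 4 genes that were higher (Hcst, Ncr1, Fcgr3 and Sh2d1a) and 1 that was lower (Sh2d2a), against 28% and 10.1% of all tested genes, 38.1% together. Scaling the libraries by their median ratio brought the median of all tested genes to 0.01 and its calls to 23.7% higher and 21.4% lower. Relative to that shift the log2 fold changes were 1.68 for Ncr1, 0.95 for Hcst, 0.70 for Sh2d1a, 0.57 for Fcgr3, 0.46 for Sh2d1b1, 0.19 for Tyrobp, 0.13 for Fcer1g and -0.36 for Sh2d2a, and Sh2d1b1 was then no longer called.

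**Figure D1:**
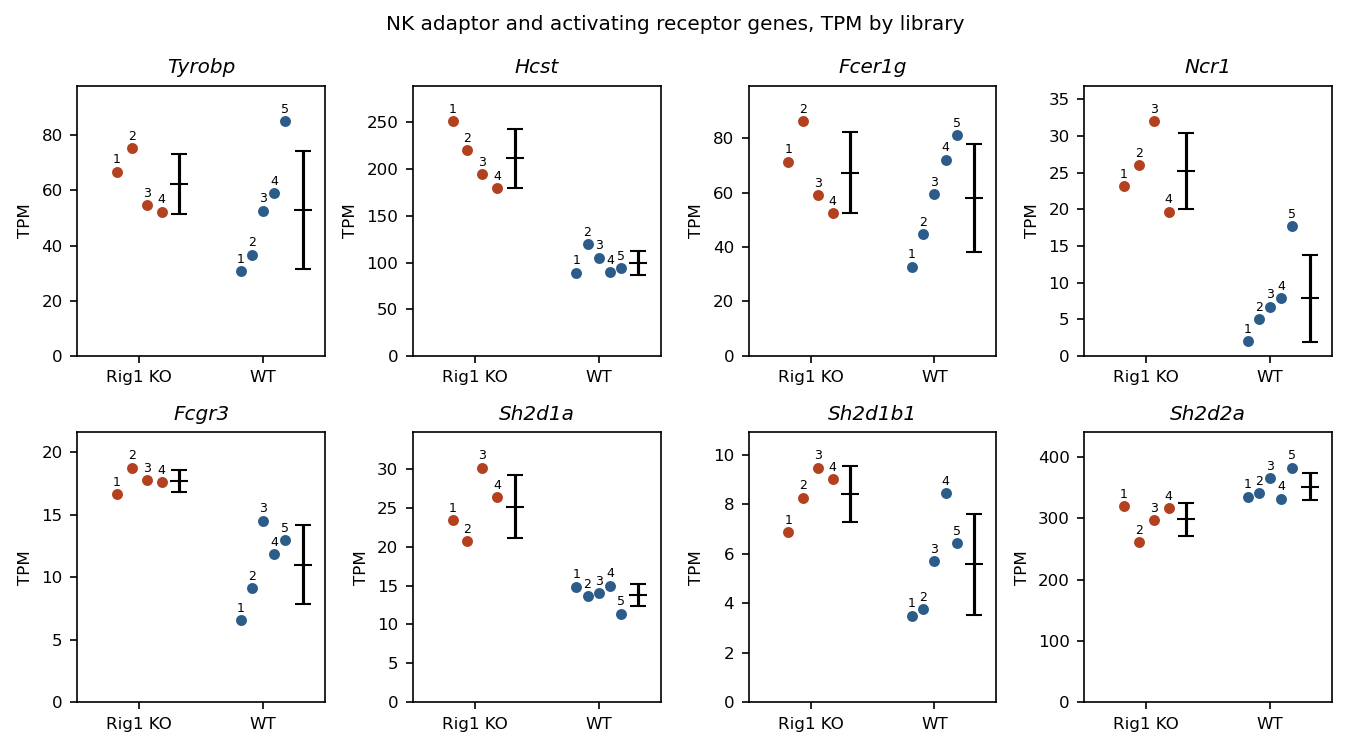
TPM of the 8 genes (y axis, each panel from 0) in the 4 Rig1 KO and 5 WT libraries; each point is 1 library with its number, and the bars beside the points are the mean ± SD. Hcst separates the genotypes at 179.9 TPM and above in Rig1 KO against 120.0 TPM and below in WT, while the Rig1 KO and WT values of Tyrobp and Fcer1g overlap.

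Hcst, the NKG2D partner, rose 2.12-fold. It had 251, 220.5, 195 and 179.9 TPM in Rig1 KO libraries 1 to 4, against 89.3, 120.0, 105, 89.5 and 94.1 TPM in WT libraries 1 to 5. Every Rig1 KO library lay above every WT library, and neither group held a library that stood apart. The means were 212 ± 31.3 TPM in Rig1 KO libraries and 99.6 ± 13.1 TPM in WT libraries (SD), a log2 fold change of 1.08 (SE 0.112, adjusted p = 3.43e-05, limma). An exact two-sided permutation test of the means gave p = 0.00794, the smallest that 126 splits allow. Of all tested genes, 1.87% had a larger log2 fold change. Between 282 and 863 recovered reads per library lay behind these values.

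Tyrobp, the ITAM adaptor that neighbours Hcst, had 66.7, 75.3, 54.7 and 52.3 TPM in Rig1 KO libraries, against 30.6, 36.8, 52.7, 58.9 and 85.1 TPM in WT libraries. The highest value and the 2 lowest were all from WT, where the extremes differed 2.78-fold. The means, 62.3 ± 10.7 TPM in Rig1 KO libraries and 52.8 ± 21.4 TPM in WT libraries, differed by less than that spread (log2 fold change 0.31, SE 0.253, adjusted p = 0.341, limma; exact permutation p = 0.452). Fcer1g, which carries the other ITAM, had 71.3, 86.2, 58.9 and 52.5 TPM in Rig1 KO libraries, against 32.7, 44.8, 59.4, 72.1 and 81.2 TPM in WT libraries. Its values overlapped too (log2 fold change 0.26, SE 0.245, adjusted p = 0.417, limma; exact permutation p = 0.476). Tyrobp and Fcer1g ranked the libraries alike within each genotype: Rig1 KO 2, 1, 3, 4 and WT 5, 4, 3, 2, 1 from high to low.

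The same WT order held for the summed monocyte and macrophage markers, 14 genes such as Csf1r, Lyz2 and Mpeg1. Their sums were 1231, 1490, 1463 and 1329 TPM in Rig1 KO libraries 1 to 4, against 659.9, 791, 1229, 1324 and 1616 TPM in WT libraries 1 to 5. In Rig1 KO libraries these sums ranked 2, 3, 4, 1, which was not the order of Tyrobp and Fcer1g. The WT order was also that of Ncr1 and of the mean log2 of the NK cell markers described below. Which cells the Tyrobp and Fcer1g reads came from was not tested. Of the 14 monocyte and macrophage markers, 2 were called higher and 1 lower, and none was at 0 in all libraries. With the mean of these 14 markers as a covariate, the log2 fold changes of Tyrobp and Fcer1g were 0.13 (adjusted p = 0.474, limma) and 0.08 (adjusted p = 0.649, limma). Among WT libraries, WT 5 and WT 4 had the highest B cell, monocyte and neutrophil marker sums and the highest Tyrobp and Fcer1g values. Leaving them out brought Tyrobp to 0.65 (adjusted p = 0.0181, limma), which is a call, and Fcer1g to 0.56 (adjusted p = 0.0520, limma). Since they held the highest WT values of both genes, leaving them out must raise these fold changes. Without WT 1, the lowest for both, Tyrobp was at 0.14 (adjusted p = 0.638, limma) and Fcer1g at 0.07 (adjusted p = 0.789, limma). With WT 4 and WT 5 left out 6 of the 8 genes were called higher and 1 lower, against 35.3% and 9.83% of all tested genes. Hcst did not follow the monocyte order, and its log2 fold change was 1.10 with the monocyte covariate and 1.01 without WT 4 and WT 5.

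Promoter sequence was available for 5 of the 8 genes (RefSeq, GRCm38.p6, 250 bases before to 50 after the gene start). Those of Hcst and Ncr1, the members with the largest rises, and of Fcer1g, which did not pass, are printed 5′ to 3′ on the strand of the gene. Capitals mark matches on either strand to the cores of 4 families of factors active in these lymphocytes: RUNX (TGTGGT), T-box (GGTGTG), ETS (AGGAAG) and AP-1 (TGANTCA).
Hcst promoter, chr7:30419805-30420104, minus strand: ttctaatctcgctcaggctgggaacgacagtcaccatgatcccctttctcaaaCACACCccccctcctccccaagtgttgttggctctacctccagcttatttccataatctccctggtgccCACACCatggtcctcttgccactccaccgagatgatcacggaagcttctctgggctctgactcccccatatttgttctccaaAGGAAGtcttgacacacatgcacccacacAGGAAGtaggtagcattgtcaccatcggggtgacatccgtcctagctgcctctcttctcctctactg
Ncr1 promoter, chr7:4337465-4337764, plus strand: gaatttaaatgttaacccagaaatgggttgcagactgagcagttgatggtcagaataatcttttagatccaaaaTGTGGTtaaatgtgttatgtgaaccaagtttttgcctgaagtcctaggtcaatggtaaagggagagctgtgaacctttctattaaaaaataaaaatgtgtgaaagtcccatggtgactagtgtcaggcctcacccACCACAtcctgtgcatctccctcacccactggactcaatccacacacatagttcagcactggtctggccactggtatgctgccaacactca
Fcer1g promoter, chr1:171234300-171234599, minus strand: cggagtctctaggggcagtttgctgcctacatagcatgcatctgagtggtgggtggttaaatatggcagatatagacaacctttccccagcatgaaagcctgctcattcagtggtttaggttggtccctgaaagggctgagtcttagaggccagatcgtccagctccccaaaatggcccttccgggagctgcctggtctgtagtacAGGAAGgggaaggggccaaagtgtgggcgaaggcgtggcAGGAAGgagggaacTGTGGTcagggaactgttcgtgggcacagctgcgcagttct
The Hcst window held 2 T-box and 2 ETS cores, the Ncr1 window 2 RUNX cores, and the Fcer1g window 2 ETS cores and 1 RUNX core, with no overlap between matches. Over 27025 promoters of the same length, 16.9% held the RUNX core, 19.0% the T-box core, 35.1% the ETS core and 7.93% the AP-1 core. A match is a description of these letters, not of a bound site.

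Ncr1, the receptor NKp46 and a defining gene of NK cells, rose 3.21-fold, the largest change among the 8. It had 23.2, 26.1, 32.0 and 19.7 TPM in Rig1 KO libraries, against 2.05, 4.98, 6.70, 7.90 and 17.7 TPM in WT libraries. The groups did not overlap, but WT 5 came close to the lowest Rig1 KO library and the WT values spanned 8.64-fold, against 1.63-fold in Rig1 KO libraries. The means were 25.2 ± 5.22 TPM in Rig1 KO libraries and 7.86 ± 5.92 TPM in WT libraries, a log2 fold change of 1.79 (SE 0.407, adjusted p = 0.00469, limma; exact permutation p = 0.0159). Of all tested genes, 0.313% had a larger one. The gene had 23 to 306 recovered reads per library, so the low WT values are the least precise among the receptors.

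Fcgr3, the low-affinity receptor for IgG that signals through Fcer1g, rose 1.61-fold. It had 16.6, 18.8, 17.8 and 17.6 TPM in Rig1 KO libraries, against 6.59, 9.12, 14.5, 11.9 and 13.0 TPM in WT libraries. Rig1 KO libraries lay within a narrow band above all WT libraries, whose values were wide. The means were 17.7 ± 0.875 TPM in Rig1 KO libraries and 11.0 ± 3.17 TPM in WT libraries (log2 fold change 0.68, SE 0.18, adjusted p = 0.0104, limma; exact permutation p = 0.0159). Besides NK cells, macrophages, neutrophils and mast cells express Fcgr3.

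Markers of several cell types moved with these receptors. The 8 NK cell markers measured, which include Eomes and the receptors Klre1 and Klra9, summed to 432 to 480 TPM in Rig1 KO libraries and 152 to 195 TPM in WT libraries, with 7 of 8 called higher, none lower and none at 0 in all libraries. Most of both sums was Eomes, on average 299 of 463 TPM in Rig1 KO libraries and 138 of 174 TPM in WT libraries. The sums are thus no measure of NK cell number. The 8 basophil and mast cell markers summed to 225 to 428 TPM in Rig1 KO libraries and 20.8 to 64.9 TPM in WT libraries, with 7 called higher, 1 lower and none at 0 in all libraries. With the mean of the NK cell markers as a covariate, the log2 fold change of Ncr1 was -1.21 (adjusted p = 0.0526, limma), that of Fcgr3 -0.41 (adjusted p = 0.498, limma) and that of Tyrobp -1.38 (adjusted p = 0.0413, limma). Hcst kept a log2 fold change of 1.24 in that fit (adjusted p = 0.0333, limma) and was the 1 member called higher, against 2.62% of all tested genes, while Tyrobp was the 1 called lower, against 4.61%. That covariate shared 85.0% of its variance with genotype, so the 2 cannot be told apart in that fit. Within Rig1 KO libraries, at 16.6 to 18.8 TPM, Fcgr3 ranked 2, 3, 4, 1, the order of the monocyte and macrophage sums. By their mean log2, used as covariate, these markers ranked 3, 2, 4, 1 there. Within WT libraries Fcgr3 ranked 3, 5, 4, 2, 1, and the monocyte and macrophage sums ranked 5, 4, 3, 2, 1. The NK cell sums, which are mostly Eomes, ranked 1, 3, 4, 2 in Rig1 KO libraries and 4, 3, 5, 2, 1 in WT libraries. By their mean log2 the NK cell markers ranked 3, 4, 1, 2 in Rig1 KO libraries and 5, 4, 3, 2, 1 in WT libraries. Which cells the Fcgr3 reads came from was not tested. With the monocyte covariate the log2 fold change of Fcgr3 was 0.56 (adjusted p = 0.00255, limma) and that of Ncr1 1.48 (adjusted p = 9.42e-05, limma). The part of basophils in these results was not tested.

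**Figure D2:**
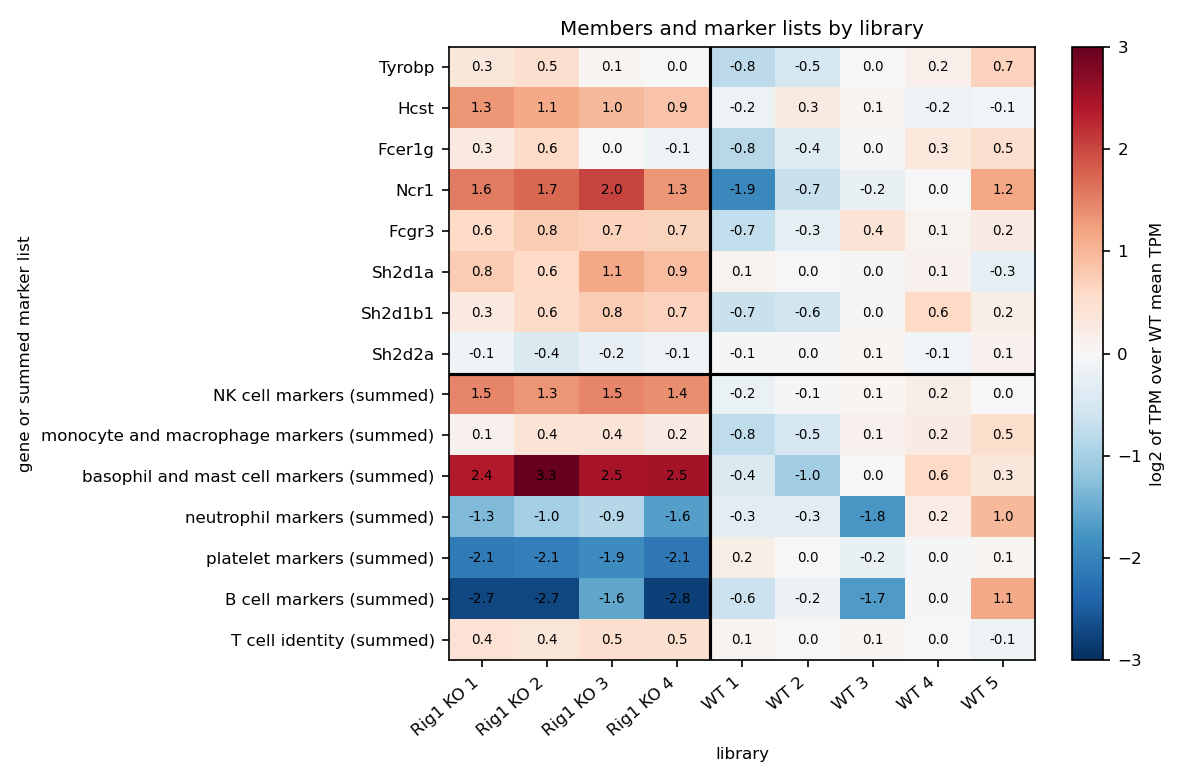
Log2 of TPM over the WT mean TPM for the 8 genes (upper rows) and for summed marker lists (lower rows), 1 column per library, Rig1 KO left and WT right; red is above the WT mean and blue below. NK cell and basophil markers are high in every Rig1 KO library, platelet markers are low there, and the Tyrobp, Fcer1g, Ncr1 and monocyte rows are all lowest in WT 1 and, within WT, highest in WT 5.

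Sh2d1a encodes SAP, which couples SLAM family receptors to the kinase FYN in T and NK cells, and it rose 1.83-fold. It had 23.4, 20.7, 30.1 and 26.3 TPM in Rig1 KO libraries, against 14.8, 13.6, 14.0, 14.99 and 11.4 TPM in WT libraries. The groups were clearly apart and the WT values were close together. The means were 25.1 ± 4.04 TPM in Rig1 KO libraries and 13.8 ± 1.45 TPM in WT libraries (log2 fold change 0.82, SE 0.112, adjusted p = 0.000203, limma; exact permutation p = 0.00794). Its span on chromosome X overlaps the end of Tenm1 on the other strand by 1465 bases. Tenm1 had 11 to 41 recovered reads per library, against 428 to 1040 for Sh2d1a, and whether counting used the strand is not given in the sources used here.

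Sh2d1b1 encodes EAT-2A, the related adaptor found in mouse NK cells. It had 6.87, 8.26, 9.47 and 9.005 TPM in Rig1 KO libraries, against 3.50, 3.77, 5.70, 8.45 and 6.43 TPM in WT libraries. The groups overlapped, since WT 4 lay above 2 of the Rig1 KO libraries. The means were 8.40 ± 1.14 TPM in Rig1 KO libraries and 5.57 ± 2.03 TPM in WT libraries, 1.51-fold (log2 fold change 0.56, SE 0.204, adjusted p = 0.0434, limma; exact permutation p = 0.0476). This call was marginal: leaving out any 1 of Rig1 KO 2, 3 or 4 or of WT 1, 2 or 3 ended it, with adjusted p-values of 0.0598 to 0.109 (limma). The values rest on 50 to 129 reads per library. The near-identical copy Sh2d1b2 had 0 to 7 reads per library, and reads could be split between the 2 genes.

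Sh2d2a encodes TSAd, a T cell adaptor induced by activation, and it was the member that fell. It had 319, 261, 297 and 317 TPM in Rig1 KO libraries, against 335, 341, 365, 332 and 382 TPM in WT libraries. The difference was small but the groups did not overlap. The means were 298 ± 26.9 TPM in Rig1 KO libraries and 351 ± 21.8 TPM in WT libraries, 85.0% of the WT level (log2 fold change -0.24, SE 0.0711, adjusted p = 0.0197, limma; exact permutation p = 0.00794). With 3416 to 4922 reads per library it was the most deeply sampled of the 8. The 9 T cell identity genes measured, among them Cd3e and Cd8a, summed to 4411 to 4921 TPM in Rig1 KO libraries and 3131 to 3625 TPM in WT libraries. Of these, 7 were called higher and none lower, against 33.5% and 12.2% of all tested genes. Cd8a made up on average 2528 of 4691 TPM in Rig1 KO libraries and 1731 of 3452 TPM in WT libraries. Whether T cell content bears on Sh2d2a was not tested.

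With the mean of the B cell markers as a covariate, Hcst, Ncr1 and Sh2d1a were called higher, at log2 fold changes of 0.95, 2.95 and 0.79 (adjusted p = 0.00881, 0.00712 and 0.0210, limma), 3 of 8 against 19.7% of all tested genes. Fcgr3, Sh2d1b1 and Sh2d2a kept their directions without passing, at 0.69, 0.85 and -0.20. This covariate shared 68.0% of its variance with genotype, so the 2 are hard to tell apart in that fit. Standard errors were larger there, for Fcgr3 0.33 against 0.18 and for Hcst 0.20 against 0.11. The 8 B cell markers measured summed to 68.3 to 159.6 TPM in Rig1 KO libraries and 146 to 1040.4 TPM in WT libraries, and all 7 that were tested were called lower. The 8 platelet markers summed to 54.4 to 65.1 TPM in Rig1 KO libraries and 205 to 274 TPM in WT libraries, with 6 of 7 tested called lower, and their part in these results was not tested. The 10 neutrophil markers summed to 101 to 175 TPM in Rig1 KO libraries and 94.0 to 619 TPM in WT libraries, with 2 called lower and none higher. The 7 dendritic cell markers summed to 61.6 to 71.1 TPM in Rig1 KO libraries and 19.1 to 77.2 TPM in WT libraries, and 1 of the 6 tested, Itgax, was called higher. Itgax made up on average 55.5 of 67.6 TPM in Rig1 KO libraries and 18.8 of 38.2 TPM in WT libraries. The median log2 fold change of the 6 was -0.35. The part of these cells was not tested either.

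**Figure D3:**
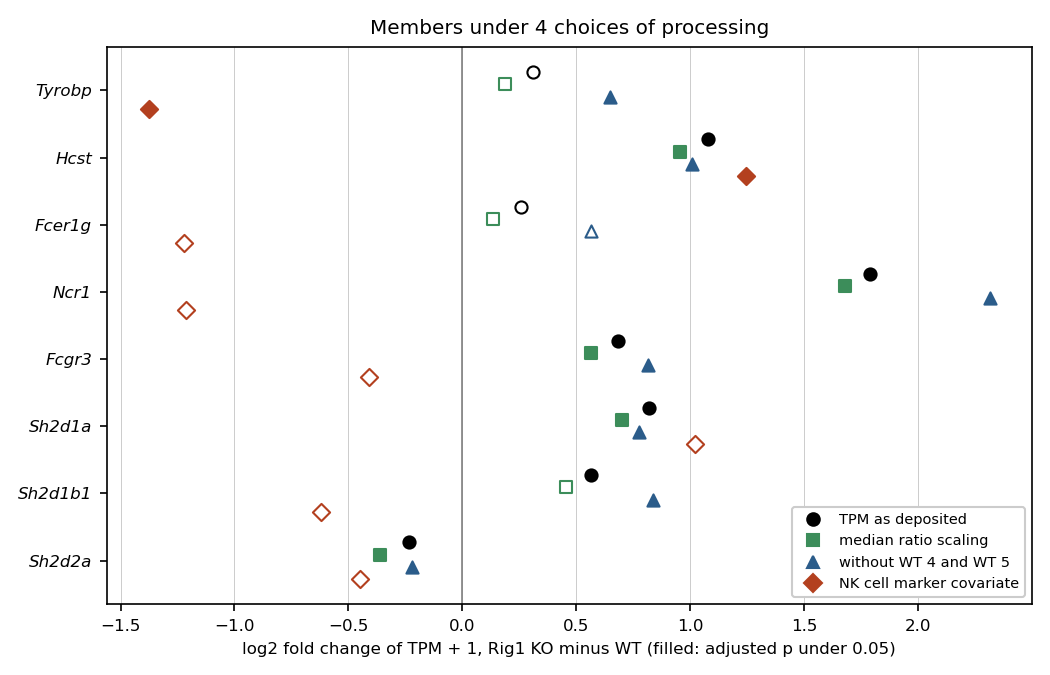
Log2 fold change (x axis, Rig1 KO minus WT) of the 8 genes with TPM as deposited, with median ratio scaling, without WT 4 and WT 5, and with the NK cell markers as covariate; filled symbols passed an adjusted p of 0.05. Hcst is filled under all 4 choices, between 0.95 and 1.24, and with the NK covariate Tyrobp, Fcer1g, Ncr1, Fcgr3 and Sh2d1b1 lie below 0.

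Ratios of 2 genes within a library depend little on how libraries are scaled, although the 1 added to each TPM weighs on low genes. There were 6 such ratios, as log2 of deposited TPM + 1, compared by exact two-sided permutation tests with p-values adjusted over the 6. The level of a ratio carries the genomic spans of its 2 genes, and only its differences between libraries are read. Klrk1 (NKG2D) over its partner Hcst was -0.86 ± 0.292 in Rig1 KO libraries and -1.88 ± 0.219 in WT libraries, a difference of 1.01 (adjusted p = 0.0238, exact permutation). The receptor thus gained 2.02-fold on its adaptor, with no overlap between the genotypes. Ncr1 over its partner Fcer1g was -1.38 ± 0.368 in Rig1 KO libraries and -2.91 ± 0.482 in WT libraries, a difference of 1.53 with no overlap (2.90-fold, adjusted p = 0.0317, exact permutation), and of 1.71 with a pseudocount of 0.1. Fcgr3 over the same adaptor was -1.84 ± 0.292 in Rig1 KO libraries and -2.27 ± 0.253 in WT libraries, and the values overlapped (adjusted p = 0.0857, exact permutation).

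Fcer1g over Tyrobp, the ratio of the ITAM adaptors, was 0.10 ± 0.0771 in Rig1 KO libraries and 0.15 ± 0.146 in WT libraries. It varied little in any library and did not separate the genotypes (adjusted p = 0.563, exact permutation). Hcst over Tyrobp was 1.75 ± 0.154 in Rig1 KO libraries and 0.98 ± 0.637 in WT libraries (adjusted p = 0.0833, exact permutation), and in WT it ran between 0.14 in WT 5 and 1.68 in WT 2. The difference of 0.77 passed without WT 2, at 0.94 (adjusted p = 0.0429, exact permutation), and was 0.36 without WT 4 and WT 5 (adjusted p = 0.129, exact permutation). The difference of Fcgr3 over Fcer1g, 0.43, passed without WT 3, at 0.50 (adjusted p = 0.0429, exact permutation), and was 0.25 without WT 4 and WT 5 (adjusted p = 0.286, exact permutation). Sh2d2a over Sh2d1a was 3.53 ± 0.193 in Rig1 KO libraries and 4.58 ± 0.229 in WT libraries, with no overlap and a difference of -1.05 (adjusted p = 0.0238, exact permutation). The differences of Klrk1 over Hcst, Ncr1 over Fcer1g and Sh2d2a over Sh2d1a each had an adjusted p of 0.0571 (exact permutation) when WT 1, WT 4 or WT 5 was left out. Their unadjusted p was then the smallest that 4 libraries against 4 allow, 0.0286, and with 1 of these libraries left out the differences were 1.001 to 1.05, 1.39 to 1.73 and -1.10 to -0.96.

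**Figure D4:**
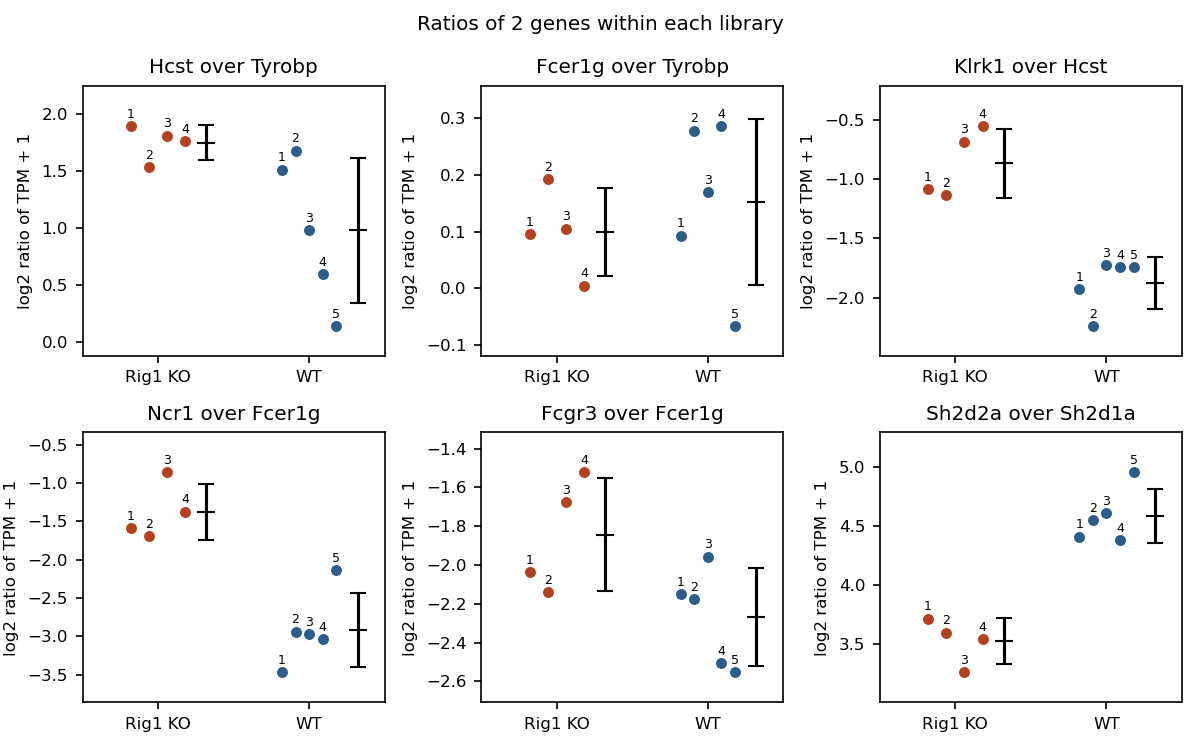
Log2 ratio of TPM + 1 of 2 genes (y axis, its range differs between panels and does not start at 0) in each Rig1 KO and WT library; points carry the library number and bars are the mean ± SD. Klrk1 over Hcst, Ncr1 over Fcer1g and Sh2d2a over Sh2d1a separate the genotypes, and Fcer1g over Tyrobp stays between -0.07 and 0.29 in all 9 libraries. The ratios are of TPM as deposited, scaled by genomic span.

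Levels of the 8 genes were set side by side after the recovered reads had been rescaled to exon length. That length joins all annotated exons of a gene, 722 bases for Hcst and 5939 for Sh2d2a. The order of the genes depends on this choice: as deposited, Sh2d2a averaged 298 TPM and Hcst 212 TPM in Rig1 KO libraries. Whether reads from introns were counted was not tested. Per exon length, Hcst was the highest in Rig1 KO libraries, at 226 ± 37.4 TPM against 109 ± 15.6 TPM in WT libraries. Sh2d2a followed with 162 ± 13.3 TPM in Rig1 KO libraries and was the highest in WT libraries with 195 ± 11.1 TPM. Fcer1g had 133 ± 32.5 TPM in Rig1 KO libraries and 117 ± 38.6 TPM in WT libraries, and Tyrobp 129 ± 25.2 TPM in Rig1 KO libraries and 111 ± 43.9 TPM in WT libraries. Hcst lay above Sh2d2a in every Rig1 KO library, Sh2d2a, Fcer1g and Tyrobp overlapped there, and in WT libraries Fcer1g, Tyrobp and Hcst did not differ beyond their spread. Fcgr3 had 50.5 ± 3.08 TPM in Rig1 KO libraries and 32.2 ± 9.10 TPM in WT libraries. Sh2d1a (44.0 ± 6.09 TPM in Rig1 KO libraries and 24.8 ± 2.69 TPM in WT libraries) and Ncr1 (43.8 ± 8.74 TPM in Rig1 KO libraries and 13.9 ± 10.3 TPM in WT libraries) overlapped with each other and with Fcgr3 in Rig1 KO. Sh2d1b1 was the lowest, at 11.2 ± 1.35 TPM in Rig1 KO libraries and 7.61 ± 2.72 TPM in WT libraries.

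The receptors known to pair with Tyrobp, Hcst or Fcer1g were read from the same fit. Of 22 receptors 18 were tested, and 7 rose, 2 fell and 9 did not pass, with a median log2 fold change of 0.47. Over all tested genes 33.5% were called higher and 12.2% lower, with a median of 0.13. The counts of this list and of those that follow are to be read beside these shares. The 7 receptors that rose were Klrk1, Klrc2, Klra8, Klrb1c, Fcer1a, Ms4a2 and Pira2. Klrk1 had 115 ± 10.5 TPM in Rig1 KO libraries and 26.4 ± 3.16 TPM in WT libraries (log2 fold change 2.09, adjusted p = 6.68e-08, limma). Klrc2 (NKG2C), a DAP12 partner, had 35.4 ± 2.77 TPM in Rig1 KO libraries and 8.61 ± 2.29 TPM in WT libraries (1.95 on the log2 scale, adjusted p = 5.36e-06, limma). Ms4a2, the beta chain of the mast cell and basophil IgE receptor that holds Fcer1g, had 10.2 ± 2.90 TPM in Rig1 KO libraries and 1.77 ± 1.01 TPM in WT libraries (adjusted p = 0.000118, limma). The receptors that fell were Trem1, a DAP12 partner of neutrophils and monocytes, and Clec4e, a gamma chain partner. Trem1 had 0.450 ± 0.241 TPM in Rig1 KO libraries and 3.43 ± 0.933 TPM in WT libraries (log2 fold change -1.60, adjusted p = 4.49e-05, limma). Klra8 and Klrc2 belong to multigene families whose reads could be split among copies. Klra4, Klra8 and Klrb1c are also among the NK cell markers, and Ms4a2 and Fcer1a among the basophil and mast cell markers, whose sums are given above.

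Of the SLAM family receptors, most of which have tails that SAP or EAT-2 bind, 6 were tested, and 5 rose and 1 fell, with a median log2 fold change of 0.50. Cd48, which has no such tail and is the ligand of CD244, had 154 ± 11.2 TPM in Rig1 KO libraries and 76.8 ± 7.34 TPM in WT libraries (log2 fold change 1.00, adjusted p = 3.51e-06, limma). Slamf7, an EAT-2 partner, had 43.6 ± 8.13 TPM in Rig1 KO libraries and 16.0 ± 4.16 TPM in WT libraries (1.41 on the log2 scale, adjusted p = 0.000108, limma). Cd84 rose too, by 0.51 (adjusted p = 0.000514, limma). Slamf1, a SAP partner, fell to 3.43 ± 0.227 TPM in Rig1 KO libraries, against 5.53 ± 0.691 TPM in WT libraries (adjusted p = 0.000818, limma). With median ratio scaling 3 of the 6 were called higher and 1 lower, against 23.7% and 21.4% of all tested genes. Without Rig1 KO 3 the counts were also 3 higher and 1 lower, against 27.8% and 12.3% of all tested genes. They were the same without Rig1 KO 4, against 26.8% and 11.5%.

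Among 27 tested kinases and adaptors that act after the ITAM and YINM motifs, 7 rose, 2 fell and 18 did not pass, and the median log2 fold change was -0.04. With median ratio scaling 4 were called higher and 9 lower. Over all tested genes the calls moved the same way with that scaling, from 33.5% higher and 12.2% lower to 23.7% and 21.4%. The balance of calls thus depended on the scaling for this list as for all tested genes. Without Rig1 KO 1, Rig1 KO 2 or WT 1, 1 gene of this list was called lower. Lat, the membrane scaffold of T cell signalling, had 773 ± 32.9 TPM in Rig1 KO libraries and 631 ± 17.95 TPM in WT libraries (log2 fold change 0.29, adjusted p = 0.000692, limma). Plcg1 rose by 0.54 and Fyn, the kinase that SAP recruits, by 0.42 (adjusted p = 0.00141 and 0.00304, limma). Bcl10, which links these receptors to NF-kappaB, fell to 56.3 ± 4.77 TPM in Rig1 KO libraries, against 84.7 ± 2.67 TPM in WT libraries (log2 fold change -0.58, adjusted p = 3.61e-05, limma). Of the kinases that bind ITAMs, Syk had 11.5 ± 2.02 TPM in Rig1 KO libraries and 19.1 ± 11.8 TPM in WT libraries, and Zap70 164 ± 7.48 TPM in Rig1 KO libraries and 150.1 ± 7.53 TPM in WT libraries. Neither passed (adjusted p = 0.191 and 0.0790, limma), and both were named here after their values were seen.

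Inhibitors of ITAM signalling numbered 21 tested genes, of which 9 were called higher and 1 lower, at a median log2 fold change of 0.31. Without WT 3, 2 were called lower. Lair1, an inhibitory collagen receptor, had 6.70 ± 0.785 TPM in Rig1 KO libraries and 3.56 ± 0.584 TPM in WT libraries (log2 fold change 0.76, adjusted p = 0.000352, limma). The phosphatase genes Ubash3a and Ptpn22 rose by 0.41 and 0.38 (adjusted p = 0.000368 and 0.00125, limma), and the ubiquitin ligase gene Cblb fell by 0.35 on the log2 scale (adjusted p = 0.00111, limma). Among 7 other activating and adhesion receptors of NK cells, 4 rose and 1 fell, with a median of 0.27. Il2rb, the beta chain of the IL-2 and IL-15 receptors, had 504 ± 6.37 TPM in Rig1 KO libraries and 365 ± 27.5 TPM in WT libraries (log2 fold change 0.47, adjusted p = 0.000117, limma). Cd2 and Crtam rose by 0.30 and 0.43, and Tigit, an inhibitory receptor of T and NK cells, fell to 7.89 ± 1.40 TPM in Rig1 KO libraries, against 14.7 ± 3.19 TPM in WT libraries (adjusted p = 0.00180, limma). Of the other SH2D genes 2 were tested: Sh2d3c rose by 0.28 (adjusted p = 0.00818, limma) and Sh2d4b did not pass.

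**Figure D5:**
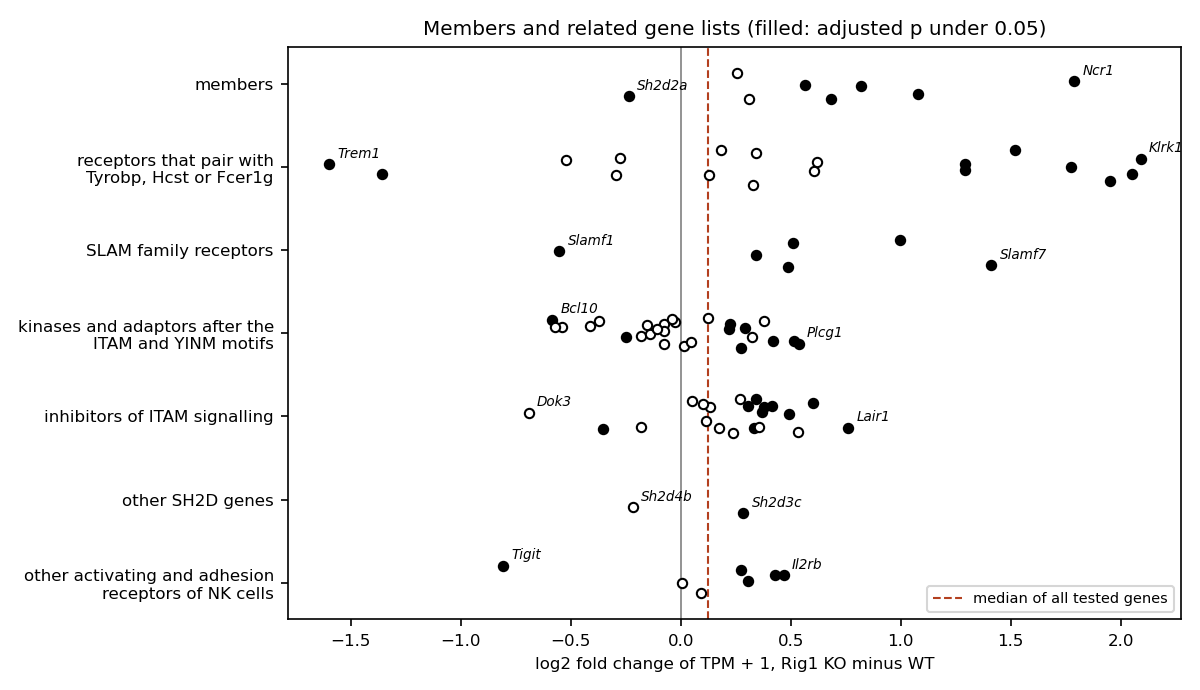
Log2 fold change (x axis, Rig1 KO minus WT) of the 8 genes and of the tested genes of 6 related lists (rows); each point is 1 gene, filled where the adjusted p was under 0.05, and the dashed line is the median of all tested genes, 0.13. Receptors that pair with the adaptors spread widest, between Trem1 at -1.60 and Klrk1 at 2.09, while the kinases and adaptors lie around 0.

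Likeness of profile was measured as the root mean square difference of log2(TPM + 1) over the 9 libraries, each gene centred on its own mean. Tyrobp and Fcer1g were each the second nearest gene to the other, at 0.110, and Dnase2a was the nearest to both, at 0.108 for Tyrobp and 0.0938 for Fcer1g. Rasa4 and Adssl1 came next for Tyrobp, and Rasa4 and Lgmn for Fcer1g. The nearest profiles to Ncr1 were Klra8 at 0.248, Itgax at 0.301 and Klra9 at 0.388, and both Klra genes encode NK cell receptors. Hcst lay nearest to Neil2 (0.100), Igip and Bcdin3d, and its neighbour Tyrobp was not among them. Fcgr3 lay nearest to Trf (0.0919), Axl and Itgad, Sh2d1a to Ttc32 (0.0678), Gbp7 and Zfp617, and Sh2d1b1 to Acp2 (0.0947), Septin8 and Prr11. All these values share the same 9 libraries and are a description.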

How the data were processed

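The deposited values are TPM, 1 column per library, per the file headers. The submitters' processing notes name fastp, which trims reads, featureCounts, which counts them over genes, and the builds mm39 and GRCm39. Tool versions, aligner, annotation release and gene lengths are not given in the sources used here. From the digits of the TPM values the reads could be recovered, as the smallest whole numbers in each gene's ratios (relative tolerance 2e-13, 100% of 17934 genes above 0). The lengths implied by them were within 1% of the genomic span in GRCm38 for 96.6% of 17478 genes, so genes with long introns have low TPM for their reads. Exon lengths and sequences came from GRCm38, an older build than the authors'.

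Genes with at least 1 TPM in at least 4 libraries entered a fit of log2(TPM + 1) by limma 3.58.1 (R 4.3.3; mean-variance trend, two-sided, Benjamini-Hochberg over all tested genes, threshold 0.05). A log2 fold change on this scale understates the change of low genes. Single values were compared by exact permutation over all 126 splits. The procedure was tested on simulated data. Groups and numbers came from the sample titles.

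The members and lists were chosen with earlier results of these data known. The text names all 8 members, up to 4 genes with the smallest p from each related list, and the 3 nearest profiles of each member; over all libraries those of Sh2d2a are not reported here. Every further gene named, the genes that make up counts included, was chosen after its values were seen. Voom on the recovered reads and the NK cell marker covariate were also chosen after seeing the data.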

Additional observations from a re-analysis of the deposited data

How the results depend on the processing

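Hcst was called higher under every alternative run, at log2 fold changes of 0.95 to 1.24. Of the 8 genes, leaving out 1 library gave 4 to 5 called higher and 1 to 1 called lower, and leaving out WT 4 and WT 5 gave 6 higher. The B cell marker covariate gave 3 higher and 0 lower, and the NK cell marker covariate 1 higher. In the NK covariate fit the 1 member called lower was Tyrobp at -1.38, and Fcer1g (-1.22), Ncr1 (-1.21), Fcgr3 (-0.41) and Sh2d1b1 (-0.62) also changed sign. Sh2d1b1 lost its call, with its direction kept, without a filter (adjusted p = 0.0933, limma), with median ratio scaling (0.0763), quantile scaling (0.0810) and voom (0.0773). Of all tested genes, 2074 were called higher with the B covariate and 276 with the NK covariate, against 3526. Called lower were 2260 with median ratio scaling, 2193 with quantile scaling, 2494 with voom, 565 with the B covariate and 486 with the NK covariate, against 1291. Leaving out 1 library gave 2795 to 3592 higher and 1098 to 1282 lower. Of the 81 genes in the related lists, 33 were called higher and 7 lower, against 33.5% and 12.2% of all tested genes. The NK covariate gave 4 higher and 11 lower. Called lower were 4 with a mean TPM of at least 5 (which left 63 genes tested), 15 with median ratio scaling, 14 with quantile scaling, 16 with voom, 3 with the B covariate and 13 with the monocyte covariate. Leaving out 1 library gave 26 to 37 higher and 6 to 10 lower. The cause of these changes was not tested.

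The ranges of the ratio differences with 1 library left out were 0.91 to 1.10 for Klrk1 over Hcst, 1.36 to 1.73 for Ncr1 over Fcer1g, -1.12 to -0.96 for Sh2d2a over Sh2d1a, 0.56 to 0.94 for Hcst over Tyrobp, -0.11 to -0.02 for Fcer1g over Tyrobp and 0.32 to 0.52 for Fcgr3 over Fcer1g. Without WT 4 and WT 5 the first 3 were 1.10, 1.75 and -0.996 (adjusted p = 0.0571 each, exact permutation, at the smallest unadjusted p that 4 libraries against 3 allow, 0.0286), Hcst over Tyrobp was 0.36 (0.129) and Fcgr3 over Fcer1g 0.25 (0.286).

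The replicate numbers did not pair the libraries: the deviations of same-numbered libraries correlated at 0.10, -0.06, -0.10 and -0.07. With the replicate block, 5 members were called higher and 0 lower, against 34.1% and 11.2% of all tested genes, and Sh2d2a was at -0.20 (adjusted p = 0.0552, limma). With the block the ratio differences of Klrk1 over Hcst, Ncr1 over Fcer1g and Sh2d2a over Sh2d1a were 1.05, 1.73 and -0.96, and 4 pairs give an exact sign-flip test no adjusted p under the threshold (0.1875 each).

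Depth limits Ncr1 most, at 23 reads in WT 1, and Sh2d1b1, at 50 reads in WT 1.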

Other observations

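With each gene centred on the mean of its own genotype, so that only differences between libraries of 1 genotype count, the nearest profiles changed for most of the 8 genes. Ncr1 then lay nearest to Tlr11 (root mean square difference 0.199 on the log2 scale), Ifitm6 (0.224) and Klri2 (0.232). Of these Klri2, a receptor gene of NK cells, averaged 10.7 TPM in Rig1 KO libraries and 4.92 TPM in WT libraries (adjusted p = 0.0112, limma), and the other two were not called. Tyrobp and Fcer1g were again each the second nearest gene to the other, at 0.107, and Dnase2a again the nearest to both, at 0.106 and 0.0821. Hcst lay nearest to Cfap298 (0.0365), Mrps33 (0.0562) and Socs3 (0.0797), and its nearest fellow member was Sh2d2a at 0.197. Fcgr3 lay nearest to Blvrb, Itgad and Slpi, Sh2d1a to Gpr174, Nae1 and Emc2, Sh2d1b1 to Cpne2, Septin8 and Cdk1, and Sh2d2a to Stx18, Tle3 and Kdm6b. These values share the same libraries and describe likeness within them only.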
